A study of Mus musculus with 32 samples.

Results

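The circadian clock output genes described here are *Dbp*, *Tef*, *Hlf*, *Nfil3*, *Wee1*, *Per1*, *Per2*, *Per3*, *Nr1d1* and *Nr1d2*, 10 of the 53700 genes counted by RNA sequencing in the kidneys of male C57BL/6 mice. They were chosen by name as clock genes, with the group levels of this same table already in view, and *Nfil3* and *Wee1* were also among the genes that the study selected on PKD + Salsalate against PKD. Their differences between groups are therefore a description and carry no test of their own. All 10 passed the filter on low counts, which kept 13961 genes.

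All 32 mice carried the iKspCre-*Pkd1*del alleles, a kidney-specific Cre that tamoxifen switches on and LoxP sites around exons of *Pkd1*, the gene of polycystin-1. The 8 wildtype mice received no tamoxifen and no salsalate and were 109 days old, so they differed from the others in tamoxifen and age as well as in *Pkd1*. The 12 PKD mice received tamoxifen at 150 mg/kg, ate normal chow and were 95 days old. The 12 PKD + Salsalate mice received the same tamoxifen, were also 95 days old and ate chow with 2.5 g/kg salsalate, a salicylate that activates AMPK, from day 81. The hour of the day at which kidneys were collected is not given in the sources used here, and for wildtype the collection day and the group cannot be told apart. Each library came from a different mouse.

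In nearly every cell the proteins CLOCK, or its relative NPAS2, and BMAL1 (gene *Arntl*) bind E-box sequences and switch on the period genes *Per1*, *Per2* and *Per3*, the REV-ERB genes *Nr1d1* and *Nr1d2*, and the PAR bZIP genes *Dbp*, *Tef* and *Hlf*. PER and CRY proteins then repress CLOCK and BMAL1, REV-ERB proteins repress *Arntl*, and the PAR bZIP activators compete with the repressor NFIL3 for D-box sequences. In the kidney this oscillator drives daily rhythms of transport and metabolism, so the level of each gene in 1 kidney depends on the hour at which it was taken.

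Library depth was between 11193136 and 109807664 counts per kidney. Markers of the labelled tissue were present, with a summed level of 11 proximal tubule genes between 10800 and 21000 CPM (each count relative to the scaled library total) in every kidney. *Pkd1* itself was higher in PKD, at 92.1 ± 15.1 CPM (SD, n = 12) against 68.7 ± 10.9 CPM (n = 8) in wildtype, counted over the whole gene, and so does not measure the deletion. One PKD kidney, replicate 10, stood apart through liver transcripts (summed level of 12 liver genes up to 5010 CPM in PKD, against at most 282 CPM in wildtype), and the 8 wildtype libraries fall into 5 whose names end in R and 3 others.

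The 10 genes were searched for clock motifs because they are described together. The window ran from 1000 bases before to 200 bases after the start of the main annotated transcript on GRCm39, and both strands were read. The E-box CACGTG was in the windows of *Tef*, *Nfil3*, *Wee1*, *Per1* and *Nr1d1*, 5 of 10, against 18.9% of 21757 protein-coding genes. The E'-box CACGTT, which shares the first 5 letters of the E-box and is counted separately, was in 4 of 10, against 18.2%. The D-box TTATGTAA was in *Per2* and 3 times in *Per3*, against 4.39% of all windows, and the other D-box searched, TTACGTAA, was in none, against 0.395%. The ROR element core TAGGTCA was in *Dbp* alone among the 10 (10.3% of all windows), and the cAMP response element TGACGTCA in *Hlf* alone (3.32%). The windows of *Nr1d2* held none of these letters. A match is a description of the letters and not a bound site. Below, 1 or 2 matches are shown for the genes with an E-box or D-box, on the strand of the gene, with the motif in capitals, its distance from the start site, and the GRCm39 position.
Tef E-box, -471 bases, chr15:81695124-81695169, plus strand, within the Tef gene but in no exon: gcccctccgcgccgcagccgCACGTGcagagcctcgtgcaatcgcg
Per1 E-box, -768 bases, chr11:68988480-68988525, plus strand, in an intron of a longer Per1 transcript: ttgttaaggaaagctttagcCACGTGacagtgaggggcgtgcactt
Per1 E-box, -22 bases, chr11:68989226-68989267, plus strand, in an intron of a longer Per1 transcript: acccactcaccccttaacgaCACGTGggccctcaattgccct
Nr1d1 E-box, -367 bases, chr11:98666501-98666546, minus strand, in an exon of the noncoding gene Gm31862: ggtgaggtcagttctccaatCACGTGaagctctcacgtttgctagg
Nfil3 E-box, -408 bases, chr13:53135750-53135795, minus strand, in exons of the genes Gm61210 and Gm61212: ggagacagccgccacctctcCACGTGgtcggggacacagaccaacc
Wee1 E-box, -539 bases, chr7:109720589-109720634, plus strand, in an exon of Gm45819: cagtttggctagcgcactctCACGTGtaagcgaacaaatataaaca
Per2 D-box, -125 bases, chr1:91387144-91387191, minus strand, in no exon: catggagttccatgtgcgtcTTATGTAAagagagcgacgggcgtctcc
Per3 D-box, -140 bases, chr4:151129253-151129300, minus strand, in no annotated gene: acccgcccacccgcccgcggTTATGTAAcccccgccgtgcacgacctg

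**Figure D1:**
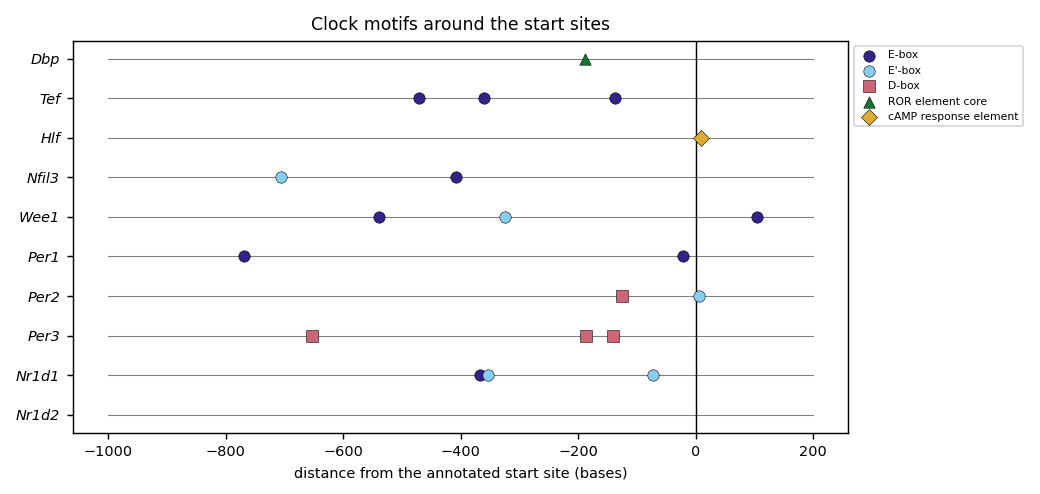
Positions of 5 clock motifs in the windows of the 10 genes, with the distance from the annotated start site in bases on the x axis and 1 line per gene. *Tef*, *Wee1* and *Per1* hold more than 1 E-box, *Per3* holds 3 D-boxes, and *Nr1d2* holds no motif.

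Levels between genes are compared per kilobase of exon. In wildtype kidneys *Dbp* was highest, at 105 ± 11.5 CPM per kb (SD, n = 8), followed by *Tef* at 55.2 ± 6.42 and *Nr1d1* at 28 ± 7.66, and these first 3 did not overlap each other. *Nr1d2* (16.5), *Hlf* (14.4), *Per2* (9.39), *Per1* (8.1) and *Per3* (7.92 CPM per kb) followed, and from *Nr1d1* to *Per3* the ranges of neighbours overlapped. *Wee1*, at 1.85 ± 0.387, and *Nfil3*, at 0.638 ± 0.163 CPM per kb, were lowest and were separate from their neighbours. *Nr1d1* shares 1694 bases, 52.3% of its exon sequence, with *Thra* on the other strand, and *Dbp* shares 15.5% with *Sphk2*, which were kept apart only because reads were counted by strand.

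*Dbp* encodes a PAR bZIP activator and is one of the most strongly cycling genes of the liver and kidney. Its level was 303, 370 and 416 CPM (lowest, median and highest) in wildtype, 173, 303 and 351 in PKD and 237, 304 and 372 in PKD + Salsalate. No PKD kidney was above the wildtype median, although the groups overlapped. The log2 fold change was -0.33 ± 0.10 (SE) in PKD against wildtype, -0.22 ± 0.10 in PKD + Salsalate against wildtype and 0.11 ± 0.09 in PKD + Salsalate against PKD.

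*Tef*, a second PAR bZIP activator, lay at 394, 441 and 570 CPM in wildtype, 285, 387 and 468 in PKD and 310, 397 and 464 in PKD + Salsalate. Only 1 of 12 PKD kidneys was above the wildtype median, and the log2 fold change was -0.25 ± 0.08 in PKD and -0.21 ± 0.08 in PKD + Salsalate, both against wildtype. Between the PKD groups it was 0.04 ± 0.08.

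*Hlf*, the third of the family, lay at 75.6, 99.3 and 132 CPM in wildtype, 70.5, 95.4 and 139 in PKD and 66.4, 81.9 and 104 in PKD + Salsalate. It was near wildtype in PKD (log2 fold change -0.04 ± 0.10), with 10 of 12 PKD + Salsalate kidneys at or below the PKD median (-0.18 ± 0.09). The direction of the PKD value turns to 0.11 against the 5 R libraries, which were all below the 3 other wildtype libraries for this gene.

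*Nfil3*, the D-box repressor, showed the widest group difference of the 10. It lay at 2.23, 3.08 and 4.57 CPM in wildtype, 3.55, 6.14 and 11.5 in PKD and 2.09, 3.82 and 5.03 in PKD + Salsalate. Every PKD kidney was above the wildtype median and every PKD + Salsalate kidney was below the PKD median. The mean of 6.62 ± 2.18 CPM in PKD stood against 3.16 ± 0.808 in wildtype (log2 fold change 1.07 ± 0.18) and 3.87 ± 0.779 in PKD + Salsalate (-0.77 ± 0.15 against PKD, and 0.30 ± 0.18 against wildtype). Its counts were 30 to 373 per kidney, the fewest of the 10.

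*Wee1* encodes the kinase that holds CDK1 inactive before mitosis and is under clock control. It lay at 12.7, 16.1 and 24.1 CPM in wildtype, 13.3, 16.8 and 23 in PKD and 9.78, 13.3 and 15.8 in PKD + Salsalate. PKD was at the wildtype level (0.04 ± 0.10), and no PKD + Salsalate kidney was above the PKD median (log2 fold change -0.37 ± 0.09).

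**Figure D2:**
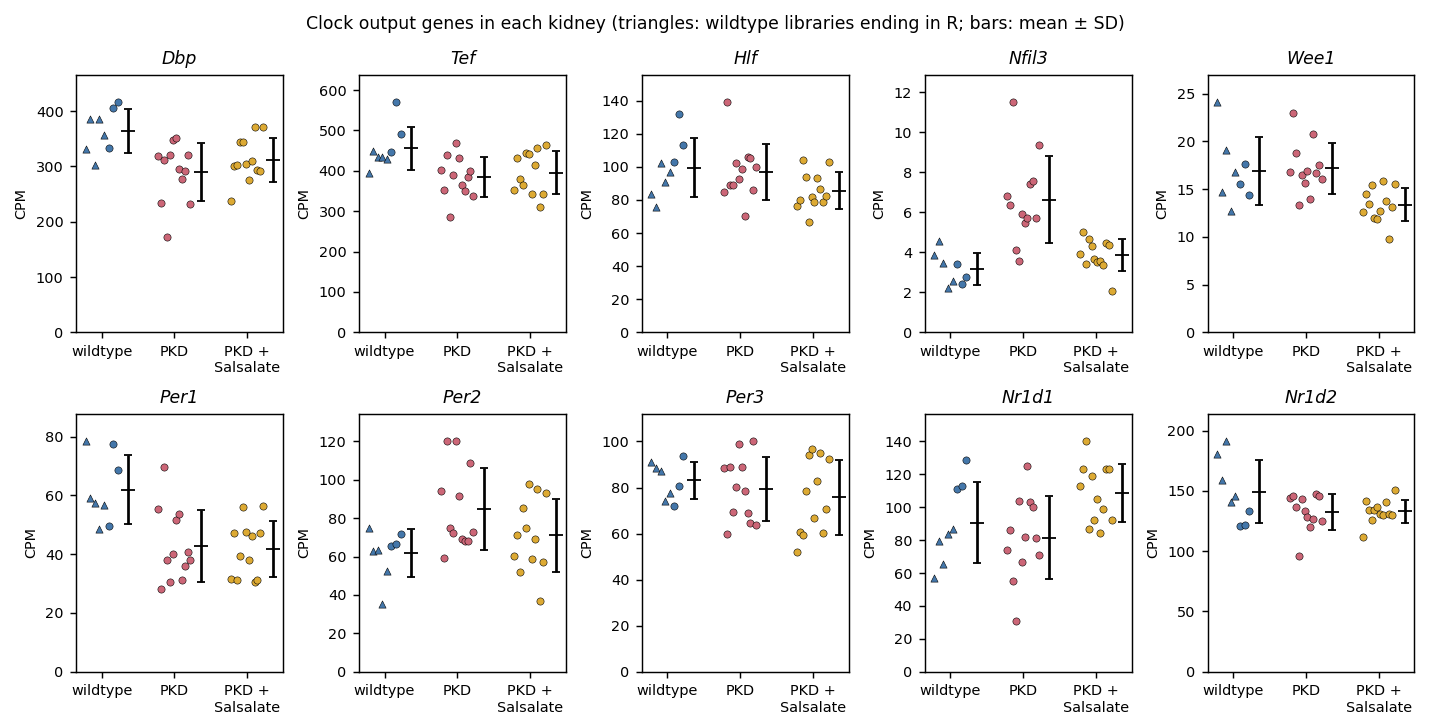
TMM-scaled CPM of the 10 genes (1 panel each, y axes from 0) in every wildtype, PKD and PKD + Salsalate kidney, with the mean and SD of each group beside the points and R libraries as triangles. *Nfil3* is highest in PKD with means of 3.16, 6.62 and 3.87 CPM, and *Wee1* is lowest in PKD + Salsalate with means of 16.9, 17.2 and 13.4 CPM.

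*Per1* responds quickly to hormonal and cAMP signals as well as to the clock. It lay at 48.6, 58.3 and 78.4 CPM in wildtype, 28.3, 39.2 and 69.7 in PKD and 30.6, 42.9 and 56.3 in PKD + Salsalate. The log2 fold change against wildtype was -0.53 ± 0.15 in PKD and -0.57 ± 0.15 in PKD + Salsalate, and between the PKD groups it was -0.03 ± 0.13.

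*Per2* was higher in PKD than in wildtype. It lay at 35.4, 64.6 and 75.1 CPM in wildtype, 59.5, 73.9 and 120 in PKD and 36.9, 70.2 and 97.8 in PKD + Salsalate, with 11 of 12 PKD kidneys above the wildtype median. The log2 fold change was 0.46 ± 0.16 in PKD and 0.20 ± 0.16 in PKD + Salsalate against wildtype, and -0.26 ± 0.14 between the PKD groups. *Per3* differed little, at 83.1 ± 8.16, 79.2 ± 14 and 75.8 ± 16.2 CPM in wildtype, PKD and PKD + Salsalate.

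*Nr1d1* and *Nr1d2*, the REV-ERB repressors, differed in their pattern. *Nr1d1* lay at 57, 85.3 and 129 CPM in wildtype, 30.9, 81.7 and 125 in PKD and 84.6, 109 and 140 in PKD + Salsalate, with all 12 PKD + Salsalate kidneys above the PKD median (log2 fold change 0.41 ± 0.15). *Nr1d2* had a mean of 133 CPM in both PKD groups (0.00 ± 0.07) and 149 ± 25.9 CPM in wildtype.

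Of the 10 genes, 2 (*Nfil3* and *Wee1*, both lower) had an adjusted p under 0.05 in edgeR's quasi-likelihood fit between PKD + Salsalate and PKD, where 0.580% of all genes tested did, 0.251% higher and 0.329% lower. Against wildtype 5 did in PKD, *Dbp*, *Tef* and *Per1* lower and *Nfil3* and *Per2* higher, where 49.1% of all genes did, 24.1% higher and 25.0% lower, and DESeq2 called 6, with *Nr1d2* added. In PKD + Salsalate against wildtype 3 did, *Tef*, *Wee1* and *Per1*, all lower, where 44.9% of all genes did, 21.8% higher and 23.2% lower. Nothing is read from these shares, since the genes were chosen with these contrasts in view. The comparisons share their PKD or wildtype kidneys. *Wee1* lay at the threshold: it kept its direction in each fit that left out 1 kidney, but was past the threshold in only 9 of those 32.

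The wildtype libraries bear on these values. *Hlf* and *Nr1d1* were lower in all 5 R libraries than in the 3 others, and *Nr1d2* was higher (141 to 191 against 121 to 133 CPM), so 3 of 10 genes did not overlap, where 43.8% of all tested genes did not. For *Nr1d1* the R libraries lay at 57 to 86.6 CPM and the others at 111 to 129. The difference of PKD from wildtype was 0.13 against the R libraries and -0.53 against the others for *Nr1d1*, and -0.30 and 0.08 for *Nr1d2*, so the direction for both genes depended on the set of wildtype libraries. *Nfil3* (0.98 and 1.19), *Per1* (-0.49 and -0.62) and *Dbp* (-0.28 and -0.42) had the same direction against either set.

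The rest of the clock, a list of 31 genes that are not among the 10, gives a comparison that the choice of the 10 did not use directly, although it too was written with earlier results known. Between PKD + Salsalate and PKD, 0 of the 30 tested genes passed the test (edgeR, adjusted p under 0.05; 3 at an unadjusted p under 0.05; DESeq2 also 0). *Cry1*, a CLOCK repressor, had the largest difference of them, 4.31 ± 1.44 CPM against 6.49 ± 1.66 (log2 fold change -0.59 ± 0.18, edgeR adjusted p = 0.133), and was below the PKD median in all 12 kidneys. *Arntl* (0.24 ± 0.22), *Npas2* (0.31 ± 0.18), *Clock* (-0.02 ± 0.08), *Ciart* (0.17 ± 0.17), *Bhlhe41* (0.04 ± 0.09) and *Usp2* (-0.05 ± 0.08) did not pass.

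*Npas2* reached the level of the filter in no wildtype kidney and was tested only because it did so in the PKD groups, so it had to differ from wildtype and is given by its levels alone, 0.928 ± 0.297 CPM in wildtype, 2.02 ± 0.632 in PKD and 2.49 ± 0.887 in PKD + Salsalate. Between PKD and wildtype, 14 of the other 29 passed, 6 higher and 8 lower, beside 49.1% of all genes. *Arntl2*, a relative of *Arntl*, rose by 0.73 ± 0.16. *Csnk1d* (0.17), a kinase of the PER proteins, *Tspan4* (0.31), *Klf10* (0.41) and *Avpr2*, the vasopressin receptor of the collecting duct (0.38), also rose. *Csnk1e*, a related kinase, was at the threshold (0.20, edgeR adjusted p = 0.0498) and did not pass with DESeq2 size factors or by DESeq2's test. *Usp2*, a strongly clock-driven deubiquitinase, fell from 375 to 258 CPM (-0.54 ± 0.09, edgeR adjusted p = 1.62e-05). *Upp2* (-0.88), *Fmo2* (-0.53), *Sgk1*, a kinase of sodium transport (-0.42), *Fbxl21* (-0.41), *Por* (-0.36), *Klf9* (-0.34) and *Btrc* (-0.27) fell as well. *Arntl* (0.32 ± 0.26), *Clock* (0.00 ± 0.09), *Cry1* (0.07 ± 0.21), *Ciart* (-0.33 ± 0.19) and *Bhlhe41* (-0.14 ± 0.10) did not pass. The value of *Clock* depended on the set of wildtype libraries. Its PKD mean of 38.9 CPM lay below all 5 R libraries (39.3 to 48.6 CPM) and above the 3 others (28.2 to 31.2 CPM). In PKD + Salsalate against wildtype 12 of the 29 passed, 4 higher and 8 lower, beside 44.9% of all genes. *Cry1* was among the lower ones (log2 fold change -0.52 ± 0.21), but missed the threshold in 11 of the 32 fits that left out 1 kidney (edgeR adjusted p of 0.0519 to 0.131).

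Clock genes peak at different hours, so a difference in phase would move them by different amounts and in both directions. In PKD against wildtype, the log2 fold change was negative in 7 of the 10 genes and positive in *Nfil3*, *Per2* and *Wee1*, with *Arntl* at 0.32 ± 0.26 and *Cry1* at 0.07 ± 0.21. Between PKD + Salsalate and PKD it was positive in 4 and negative in 6, several of them near 0. The larger values there were *Nr1d1* at 0.41, *Npas2* at 0.31 and *Arntl* at 0.24 on the positive side and *Nfil3* at -0.77, *Cry1* at -0.59, *Wee1* at -0.37 and *Per2* at -0.26 on the negative side. Whether a difference in phase gives these values was not tested, since neither the hour of collection nor a time series of this kidney is at hand. All tested genes had a median of -0.01 in each comparison. The signs of *Hlf*, *Wee1*, *Nr1d1* and *Cry1* in PKD against wildtype turned against the 5 R libraries and that of *Nr1d2* against the 3 others.

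**Figure D3:**
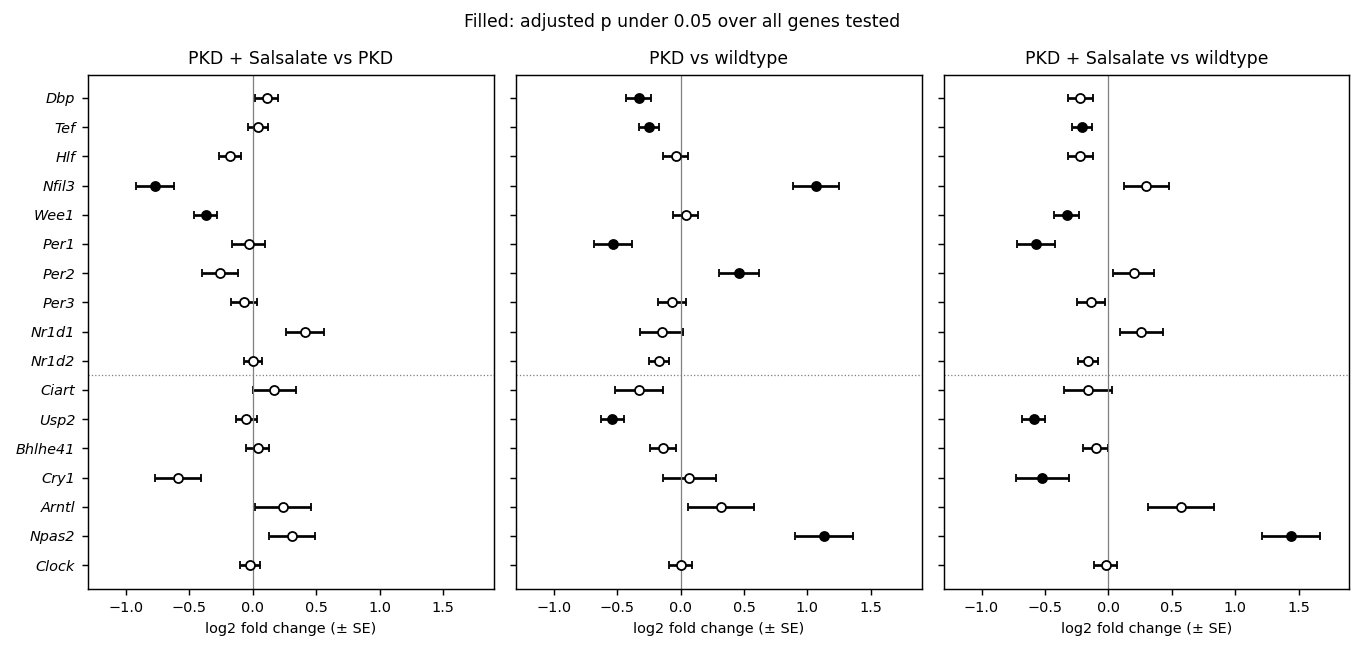
Log2 fold changes with their SE (x axis) of the 10 genes, above the dotted line, and of 7 other clock genes in the 3 comparisons. Filled points had an adjusted p under 0.05 over all genes tested. In PKD + Salsalate against PKD only *Nfil3* at -0.77 and *Wee1* at -0.37 are filled, and *Npas2* was tested against wildtype only through its level in the PKD groups.

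Other gene groups differed between the same groups of kidneys, and their part in the results was not tested. In bulk kidney, fewer cells of a type and less RNA per cell cannot be told apart. Of the macrophage markers that reached the filter in wildtype too, 10 of 10 were higher in PKD than in wildtype (median log2 fold change 1.39), with a summed level of 357 to 568 against 154 to 242 CPM, and so did 10 of 10 fibroblast markers (913 to 1540 against 382 to 598 CPM). Distal nephron markers were lower in 7 of 12 (3690 to 4740 against 3820 to 5980 CPM), while 4 of the 12 had a positive log2 fold change. Of 11 proximal tubule markers, 2 were higher and 4 lower in PKD than in wildtype. Of all tested genes, 24.1% were higher and 25.0% lower in PKD than in wildtype. In PKD + Salsalate against PKD, 0.251% were higher and 0.329% lower. No gene of these lists was at 0 throughout a group. Of 13 immediate early genes that reached the filter in wildtype too, 11 were higher in PKD (median 0.81), and the summed level of the list was higher (455 to 791 against 286 to 406 CPM). Between PKD + Salsalate and PKD none of the 16 tested passed in edgeR (10 at an unadjusted p under 0.05; 1 by DESeq2), all 16 had a negative log2 fold change (median -0.27), and their sum was 406 to 594 CPM. Beside *Wee1*, 5 of 16 tested genes of the G2 and M phases were lower in PKD + Salsalate (median -0.46; 10 of 16 by DESeq2), *Cdk1* among them (-0.54 ± 0.13), and 10 of the 11 that reached the filter in wildtype too were higher in PKD than in wildtype (median 2.05). Between the PKD groups 0 of 11 macrophage markers passed in edgeR (0 at an unadjusted p under 0.05; DESeq2 also 0; median -0.08). Of 10 glucocorticoid-responsive genes, 4 were lower and 1 higher in PKD than in wildtype (median -0.14), beside 49.1% of all genes. *Per1*, *Sgk1* and *Klf9* are among the 4 lower and were already counted above as clock genes, so they add nothing new. The log2 fold change was positive in 5 of the 10 and negative in 5. Their summed level was 745 to 1030 against 929 to 1110 CPM. Between the PKD groups 0 passed in edgeR (2 at an unadjusted p under 0.05, and 0 by DESeq2).

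Within a group, the level of *Arntl* varied among kidneys, and each of the 10 genes was correlated with it over the 12 kidneys of each PKD group, which uses no difference between groups. *Arntl* rested on few counts, 14 to 130 per kidney in PKD and 18 to 243 in PKD + Salsalate. Of 20 relations, 6 had an adjusted p under 0.05 for Pearson's r by permutation. In PKD these were *Dbp* (r = -0.67, rho = -0.51, permutation adjusted p = 0.0479 and 0.163) and *Tef* (r = -0.70, rho = -0.65, permutation adjusted p = 0.0479 and 0.106). In PKD + Salsalate they were *Dbp* (r = -0.78, rho = -0.81, permutation adjusted p = 0.0299 and 0.041), *Per3* (r = -0.80, rho = -0.70, permutation adjusted p = 0.0299 and 0.0959), *Per2* (r = -0.68, rho = -0.63, permutation adjusted p = 0.0479 and 0.106) and *Nr1d1* (r = 0.73, rho = 0.74, permutation adjusted p = 0.0479 and 0.0751).

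*Nr1d1* was the only one of these 6 with a positive r. Only *Dbp* in PKD + Salsalate passed for both coefficients. Without the 2 kidneys farthest from the median of *Arntl* none of the 20 passed, with r from -0.62 to -0.79 for the negative relations and 0.79 for *Nr1d1*, over 10 kidneys. *Nr1d1* had r = -0.07 in PKD, and the difference between the groups was not tested. *Nfil3* had r = -0.39 in PKD and 0.42 in PKD + Salsalate, neither past the threshold.

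**Figure D4:**
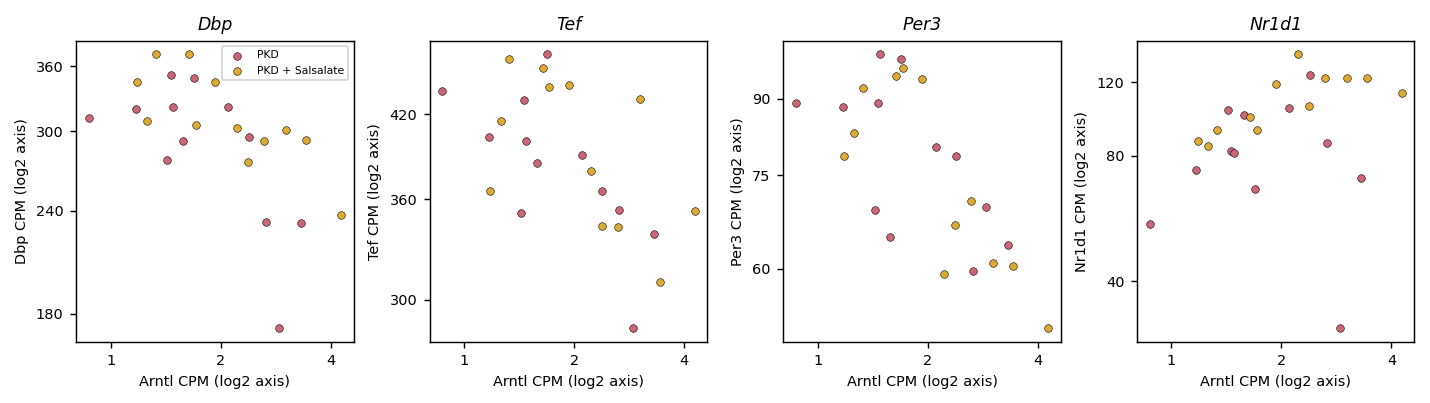
*Dbp*, *Tef*, *Per3* and *Nr1d1* against *Arntl*, in CPM on log2 axes, with 1 point per PKD or PKD + Salsalate kidney. *Dbp*, *Tef* and *Per3* have a negative r with *Arntl* in both groups (-0.56 to -0.80), while *Nr1d1* has r = -0.07 in PKD and 0.73 in PKD + Salsalate. Of the negative r of *Dbp*, *Tef* and *Per3*, those of *Tef* in PKD + Salsalate (-0.56) and *Per3* in PKD (-0.61) did not pass the threshold. Without the 2 kidneys farthest in *Arntl*, none passed.

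Over the 24 kidneys of both PKD groups, with each group's mean taken off, the clock genes formed a graded pattern, given as a description. The values of 1 kidney come from 1 library, so its depth and cell composition enter all genes at once. Among the 14 other clock genes compared, *Dbp* varied most like *Ciart*, a clock repressor (r = 0.86, rank 2 of 13960 genes). *Tef* (0.80, rank 3), *Per3* (0.70, rank 36) and *Nr1d2* (0.67, rank 67) followed. It varied least like *Clock* (-0.81, rank 13959) and *Arntl* (-0.69). PKD replicate 4, the smallest library, had the lowest *Dbp*, *Tef*, *Nr1d2* and *Ciart* (4.1 CPM) and the highest *Clock* (49.9 CPM) of the PKD kidneys. These r were not computed without it. *Per3* and *Per2* varied together (0.81). *Arntl* had *Npas2* as the most similar of 13960 genes (0.76) and *Clock* at rank 5 (0.70). *Nr1d1* went against *Cry1* (-0.65), which was at rank 13699 for *Nr1d1*. *Wee1* varied with *Hlf* (0.68) and hardly with *Per3* (0.02). *Hlf* was at rank 77 for *Wee1*, and *Wee1* at rank 597 for *Hlf*. *Nfil3* had r between -0.23 and 0.19 with all 14 other clock genes compared.

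**Figure D5:**
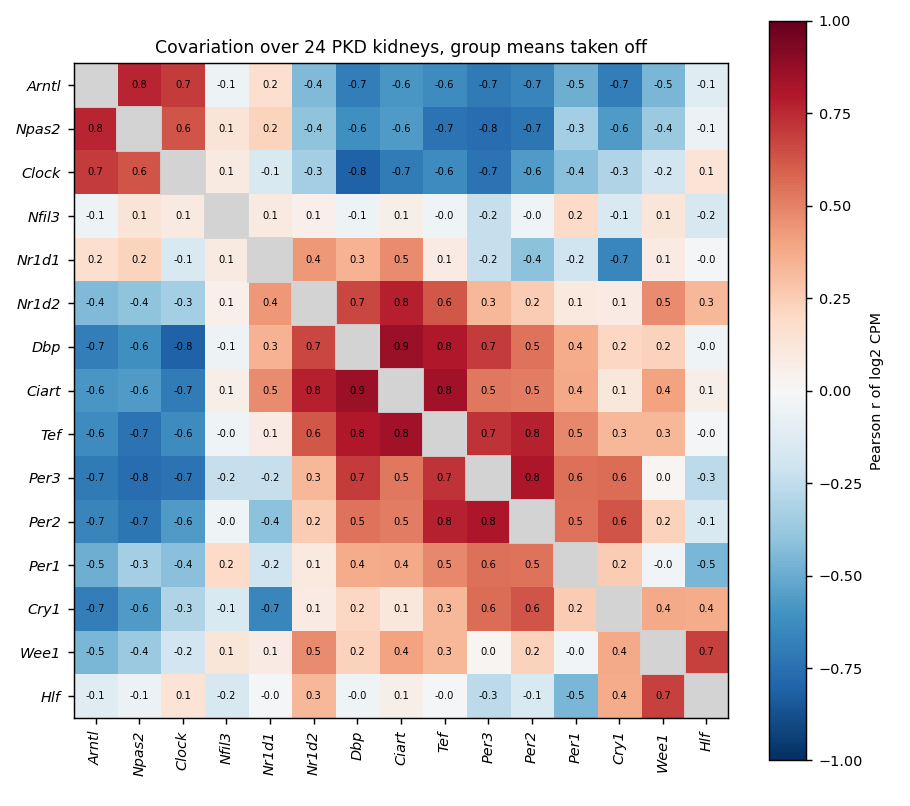
Pearson r of log2 CPM between clock genes over 24 PKD and PKD + Salsalate kidneys with group means taken off, from blue (-1) to red (1), with rounded values in the cells. *Arntl*, *Npas2* and *Clock* form one red block and *Dbp*, *Ciart*, *Tef*, *Per3* and *Per2* another, with blue between them, while the row of *Nfil3* stays pale.

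Among all 13960 other genes, over all 32 kidneys with group means taken off, *Dbp* was most similar to *Ciart* (r = 0.84), *Klhdc9* (0.80), *Tef* (0.77), *Nek8* (0.71) and *Phf24* (0.71), and least to *Hsp90b1*, a chaperone of the endoplasmic reticulum (-0.76), *Tgoln1* (-0.73), *G3bp1* (-0.70), *Cpsf2* (-0.70) and *Top2a* (-0.67). *Nfil3* was most similar to *Adrb3*, a beta-adrenergic receptor of fat cells (0.69), *Zfp810* (0.68), *Mchr1* (0.67), *Retn*, a fat-cell hormone (0.63), and *Lgals12* (0.63), and least to *Gm49463* (-0.66), *Bcl6* (-0.63), *Rpl29-ps2* (-0.60), *Pgbd1* (-0.56) and *Sap30* (-0.56). Over 24 PKD kidneys the same 20 genes kept the sign of r. These 24 are among the 32 kidneys that picked the genes, so this is no separate check. The ranks moved for some, with *Nek8* from rank 4 to rank 32 for *Dbp*.

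Since *Adrb3* and *Retn* were among the genes most similar to *Nfil3*, a list of 12 adipocyte genes was added after the data were seen. The list includes these same genes, and no r with *Nfil3* is given for the rest of it. Between PKD + Salsalate and PKD, 0 of its 11 tested genes passed in edgeR, beside 0.580% of all genes. None did at an unadjusted p under 0.05 or by DESeq2. The log2 fold change was positive in 10 of 11 (median 0.22). Between PKD and wildtype, 3 of 11 passed, *Adrb3* and *Retn* among them, beside 49.1% of all genes, and the median was -1.01. Whether fat tissue bears on the level of *Nfil3* was not tested. The summed level was 301 to 952 CPM in wildtype, 254 to 736 in PKD and 295 to 750 in PKD + Salsalate, and no gene of the list was at 0 throughout a group.

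Single kidneys stood out in several of the 10 genes at once. PKD replicate 4 was the lowest PKD kidney for *Dbp* (173 CPM), *Tef* (285), *Wee1* (13.3), *Nr1d1* (30.9) and *Nr1d2* (96.3). It was also the smallest library of all, with 11193136 counts. Its share of counts on genes, 74.1%, was the lowest among PKD kidneys. Whether this bears on its values was not tested. PKD replicate 3 was the highest for *Nfil3* (11.5), *Per1* (69.7) and *Per2* (120 CPM). Among PKD + Salsalate kidneys, replicate 12 was the highest for *Dbp*, *Tef*, *Per1* and *Nr1d2* and the lowest for *Nfil3*, at 2.09 CPM. Spread within a group was widest for *Nfil3* in PKD, with a coefficient of variation of 32.9%, and narrowest for *Nr1d2* in PKD + Salsalate, at 7.09%.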

How the data were processed

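RNA of 32 mouse kidneys (8 wildtype, 12 PKD, 12 PKD + Salsalate) was sequenced from poly(A)-selected, directional libraries. Per the submitters' processing notes, reads were trimmed with cutadapt 2.10, aligned with STAR 2.7.5a to GRCm39 and counted by strand with HTSeq 0.12.4. The authors deposited raw counts per gene, without normalization, and 5 summary lines that were left out. Groups came from the sample labels.

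Counts were fitted in R 4.3.3 with edgeR 4.0.16 (quasi-likelihood test, 3 groups in 1 fit, TMM scaling), on genes that exceeded 1 on the log2 CPM scale in 25% or more of the kidneys, with Benjamini-Hochberg adjustment over 13961 genes and a threshold of 0.05. At 11193136 counts, the smallest library, precision is lowest for *Nfil3*, *Arntl* and *Npas2*. Correlations used log2 CPM with a prior count of 2 and 100000 permutations, 2-sided, adjusted over 20 relations for each coefficient. Gene names, exons and start sites came from GENCODE on GRCm39, in which 52610 of 53700 identifiers were found. The methods were tested on simulated data.

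The members and gene lists were chosen with earlier results of these data known. Named were all 10 genes, every other clock gene past the threshold in any comparison with 7 named in any case, at most 3 examples of other lists, and the 5 genes most and least similar to *Dbp* and *Nfil3*. Alternatives were DESeq2 1.42.0 size factors and Wald test, other filters, only the groups compared, a replicate block, each kidney left out, and the wildtype sets. The adipocyte list and the correlations over 24 kidneys were added after seeing the data.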

Additional observations from a re-analysis of the deposited data

How the results depend on the processing

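The 2 calls among the 10 genes in PKD + Salsalate against PKD became 1 with DESeq2 size factors, without a filter, with edgeR's filterByExpr, with the replicate block and without the PKD kidney with liver transcripts, each time through *Wee1*; over the fits that left out 1 kidney the count was 1 to 2, and *Wee1* stayed past the threshold in 9 of 32, those without wildtype replicates 1, 3, 4 or 7, PKD replicates 4, 6 or 8, or PKD + Salsalate replicates 8 or 11. In PKD + Salsalate against wildtype the 3 calls became 5 by DESeq2's Wald test (*Dbp* and *Hlf* added), and were 2 to 5 with 1 kidney left out, 5 without PKD + Salsalate replicate 12. *Tef* there missed the threshold without wildtype replicates 2, 7 or 8 or PKD + Salsalate replicates 1, 3, 4, 7, 10 or 11. Same-numbered kidneys did not pair: their deviations correlated at -0.40 to 0.41 between the PKD groups, over 0.1 in 2 of 12 pairs, so the block is only a check, and it moved no other count by over 1.5 times. Correlations past the threshold went from 2 to 0 in PKD with DESeq2 size factors, without the farthest 2 kidneys or without the kidney with liver transcripts, and from 4 to 0 in PKD + Salsalate without the farthest 2. Against the R libraries alone, the direction turned in PKD for *Hlf* (0.11), *Wee1* (-0.01), *Nr1d1* (0.13) and *Cry1* (-0.09), and in PKD + Salsalate for *Ciart* (0.06). Against the 3 others it turned for *Nr1d2* in PKD (0.08), and in PKD + Salsalate for *Nr1d1* (-0.12), *Nr1d2* (0.09), *Clock* (0.34) and *Bhlhe41* (0.03). Without a filter *Clock* in PKD + Salsalate against wildtype was 0.01. Without wildtype replicate 4, *Per2* in PKD against wildtype missed the threshold (edgeR adjusted p = 0.0519). In PKD against wildtype DESeq2's test called 6 of the 10 genes, and *Csnk1e* missed the threshold in each DESeq2 alternative. The lost correlations without the farthest 2 kidneys come with 10 in place of 12 kidneys. The cause of the other changes was not tested.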
